A study of Gallus gallus with 10 samples.

Results

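The cytosolic ribosomal protein genes of the chicken embryo were followed across embryo regions with and without exogenous Otx2. A gene was taken as a member when its symbol in the deposited gene table was that of a protein of the large subunit (RPL and a number, or RPLP0 to RPLP2) or of the small subunit (RPS and a number), paralogs with an L or L1 suffix included and the S6 kinases left out. The rule took 71 of the 25443 genes of the table, 44 of the large subunit and 27 of the small subunit, and used no measured value. Each cytosolic ribosome needs one copy of nearly every such protein beside the ribosomal RNAs, and the proteins are made from mRNAs that are among the most abundant of growing cells. In vertebrates these mRNAs begin with a terminal oligopyrimidine tract through which their translation responds to nutrients and mTOR signaling, and an embryo that builds tissue quickly makes many ribosomes.

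Poly-A RNA of 10 libraries was sequenced, each from a pool of 4 wild-type chicken embryos at st. 10-11. OT (2 libraries) and OH (2 libraries) were the sinus rhomboidalis-equivalent trunk portion and the midbrain-hindbrain portion of embryos electroporated with pCAGGS-mOtx2, a ubiquitously driven vector for mouse Otx2 (a homeobox factor of the anterior brain), together with pCAGGS-EGFP. CT (2 libraries) was the sinus rhomboidalis, the posterior site where the trunk grows, of controls, and CH (2 libraries) the midbrain-hindbrain portion of controls that received pCAGGS-EGFP. OA and CA (1 library each) were the posterior area opaca, the extraembryonic tissue that forms the yolk sac, with mouse Otx2 plus EGFP and with EGFP. The labels give no sex of the embryos. Fewer cells of a type and less RNA per cell cannot be told apart in such pools.

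The libraries held between 28606038 and 40806402 counted reads, of which the members took between 1752294 and 2676236. Mouse Otx2 was at 334 and 529 TPM (a transcript level scaled for transcript length and for the library total) in OT. It was at 97.4 and 160 TPM in OH and at 139 TPM in OA, and 0 reads were counted in the control libraries. A count of 0 still allows an expected count of up to about 3 reads in each. One CT library, CT1, is titled as not electroporated although its treatment field names EGFP, and the treatment field of CT2 reads as not electroporated. EGFP was at 1.12 TPM in CT1 and at 15328 TPM in CT2, which goes against the treatment field of both. Of the 7 measured midbrain-hindbrain markers the summed level was between 306 and 311 TPM in OH and CH and between 2.53 and 203 TPM elsewhere. Of this sum, FGF8 alone was at 159 and 131 TPM in CT, against 32.8 to 43.3 TPM in OH and CH. EN1, EN2 and OTX2 were each between 0 and 0.51 TPM in CT. The 7 measured trunk markers were at 235 and 79.5 TPM in OT against 817 and 773 TPM in CT. The 8 area opaca markers, of which 1 was at 0 in all libraries, were summed at 46886 TPM in OA and 34778 TPM in CA, and they were at 13192 and 9399 TPM in OT against 2290 and 5919 TPM in CT. Summed over 7 heart and muscle markers the level was 1822 and 1793 TPM in OT against 185 and 179 TPM in CT, 2665 and 4443 TPM in OH against 604 and 4181 TPM in CH, and 136 TPM in OA against 186 TPM in CA. In these sums the OT pools were above the CT pools for area opaca and heart markers, and CH1 was below CH2 for heart markers. Among the area opaca markers TTR, APOA1 and FGB were higher in both OT libraries than in both CT libraries. APOB (84.3 and 109 TPM), CUBN (11.1 and 16.7), AMN (7.98 and 12.0) and LRP2 (38.0 and 72.3) were lower in OT2 than in CT2. In OT1 all of these were above both CT libraries. The part of area opaca and heart cells in the differences of the members was not tested.

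The members were among the most abundant transcripts of every library. Their median level was 2734 TPM as the mean of the 10 libraries, 64 members were above 1000 TPM, and 60 were among the 100 genes of the highest level in the table. The highest level was that of RPS6 (identifier 396148, chromosome Z from 34189975 to 34194432 of GRCg7w), the small subunit protein that is phosphorylated by the S6 kinases, with 6182 TPM. RPL21 of the large subunit with 4999 TPM, and RPS20, RPS12 and RPS23 of the small subunit with 4770, 4725 and 4395 TPM, followed it. RPS23 lies at the decoding center of the small subunit. At the low end were RPS14 at 774 TPM, RPS24 at 508 TPM, RPL7L1 at 285 TPM, RPS27L at 47.5 TPM and RPL3L at 0.81 TPM. The rank of RPS24 and RPS14 in TPM depends on the length of the transcripts to which their reads were assigned, on average 4794 and 1673 bases against a median of 560 over the members. In CPM, the read count scaled to the library total alone, RPS24 ranked 17 and RPS14 47 of the 71. RPL3L, which replaces RPL3 in skeletal and heart muscle of mammals, had between 10 and 31 reads in each library, and its fold changes had the widest intervals of all members.

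The proteins of the stalk, through which the large subunit recruits elongation factors, were at similar levels. The mean over the libraries was 2771 TPM for RPLP0, 2708 TPM for RPLP1 and 2996 TPM for RPLP2. In the order of levels only 8 of the 70 steps from one member to the next were larger than the SD of both neighbors over the libraries, 1 below RPS6 and the other 7 below RPS28 at the lower end. The spread of a member over the 10 libraries, as the SD of log2(TPM + 1), had a median of 0.16. The median was 0.32 for the 10671 genes of at least 5 TPM and 0.29 for the 89 other genes of at least 1000 TPM. RPL7A of the large subunit had the smallest spread of all members (SD 0.093, between 3314 and 4070 TPM), and RPS27L and RPL15 had the largest, 0.48 and 0.40. The spread of RPL15 was 0.18 without CA.

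The members together held 17.3% and 20.7% of all TPM in the OT libraries, against 19.3% in both CT libraries. They held 20.5% and 18.8% in OH, against 21.2% and 19.5% in CH, and 16.5% in OA, against 18.5% in CA. The OT libraries thus lay on either side of the CT libraries, and the ranges of OH and CH overlapped. The group means were 19.0% ± 2.38 in OT and 19.3% ± 0.05 in CT, and 19.6% ± 1.21 in OH and 20.4% ± 1.15 in CH (SD, n = 2 each). With 2 libraries a group no exact permutation test could reach 0.05, and the difference between OT and CT was smaller than the spread between the OT libraries. The large subunit held between 1.53 and 1.69 times as much TPM as the small subunit in every library. The ratio was 1.64 and 1.53 in OT against 1.68 and 1.64 in CT, 1.61 and 1.65 in OH against 1.58 and 1.69 in CH, and 1.53 in OA against 1.57 in CA.

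**Figure D1:**
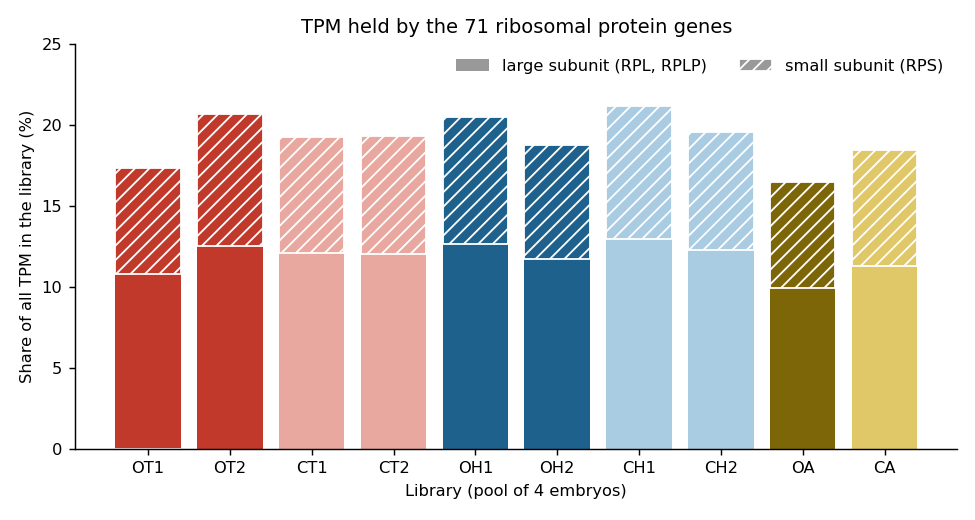
Share of all TPM (%) held by the 71 ribosomal protein genes in each of the 10 libraries, with the large subunit as plain and the small subunit as hatched part of each bar. OT and CT are trunk with Otx2 and control, OH and CH midbrain-hindbrain with Otx2 and control, and OA and CA area opaca with Otx2 and control. The bars lie between 16.5% in OA and 21.2% in CH1, and OT1 (17.3%) and OT2 (20.7%) lie below and above both CT libraries.

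The OT libraries differed more than any other pair of replicates, in the members as over all genes. The median absolute difference of the members between replicates was 0.28 on the log2(TPM + 1) scale in OT, against 0.05 in CT, 0.14 in OH and 0.11 in CH. Over the 10671 genes of at least 5 TPM it was 0.26 in OT, 0.17 in CT, 0.12 in OH and 0.22 in CH. In OT1, 66 of the 71 members were below their level in OT2, as were 59.0% of these genes, and 62 were below both CT libraries (52.9% of these genes). In OT2, 45 members were above both CT libraries (38.4% of these genes). Primitive blood transcripts, summed over 6 measured markers, differed between the same libraries, with 14761 TPM in OT1 and 1602 TPM in OT2 against 9823 and 5576 TPM in CT. Their part in the difference between the OT libraries was not tested.

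The comparison of OT with CT asked whether exogenous Otx2 in the trunk altered the messengers of the ribosome. None of the 71 members passed the quasi-likelihood test of edgeR at a Benjamini-Hochberg adjusted p of 0.05, whereas 1118 of 16611 genes did (6.73%), of which 712 were higher in OT (485 of 926 by limma on log2(TPM + 1)). The count was 1 at an unadjusted p under 0.05, against 26.8% of all genes, and 0 by the DESeq2 Wald test and by limma on log2 TPM. The log2 fold change was above 0 for 36 members and below 0 for 35, with a median of 0.00, against 0.03 over all genes. The 95% interval of 53 members lay within 0.5 of 0 on the log2 scale and that of 69 within 1. The TPM of the groups did not overlap for 6 of the 71 members that were higher in OT, against 25.9% of all genes, and for 17 that were lower, against 29.6%. Without OT1 the median was 0.09 and without OT2 it was -0.07, so that its sign depended on which OT library was left out. Without CT1 and without CT2, the libraries whose treatment fields did not match their EGFP, the median was 0.00 and -0.02, with 0 members called.

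Of the members that were higher in OT, 5 stood at the upper end, and 4 of these lie on chromosome Z. RPS27L, a paralog of RPS27 that is a target of p53 in human cells, was at 45.8 and 67.6 TPM in OT against 30.5 and 44.3 TPM in CT (log2 fold change 0.63, 95% interval -0.02 to 1.29, adjusted p = 0.197 by edgeR). RPL37, a zinc-binding protein of the large subunit, was at 3148 and 4169 TPM in OT against 2814 and 2820 TPM in CT (log2 fold change 0.41, interval -0.07 to 0.89). Both OT libraries were above both CT libraries for each of these genes. RPS23 was at 4555 and 4804 TPM in OT against 3770 and 3648 TPM in CT (0.38, interval -0.21 to 0.97), and RPL17, which lines the exit tunnel, at 4077 and 4127 TPM in OT against 3369 and 3218 TPM in CT (0.36, interval -0.19 to 0.91). RPS6 was at 6033 and 7131 TPM in OT against 5211 and 5555 TPM in CT (0.33, interval -0.16 to 0.81). The groups did not overlap for these 3 genes either, and no interval excluded 0.

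At the lower end were 5 members of the large subunit. RPL6 was at 2561 and 2862 TPM in OT against 3362 and 3361 TPM in CT (log2 fold change -0.27, 95% interval -0.52 to -0.01, adjusted p = 0.17 by edgeR). RPL4, which also reaches into the exit tunnel, was at 2368 and 2731 TPM in OT against 2992 and 3034 TPM in CT (-0.20, interval -0.44 to 0.03). RPL15 (-0.18), RPL27 (-0.16) and RPL39L (-0.14) were also lower in both OT libraries than in both CT libraries. None of these passed the adjusted test.

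**Figure D2:**
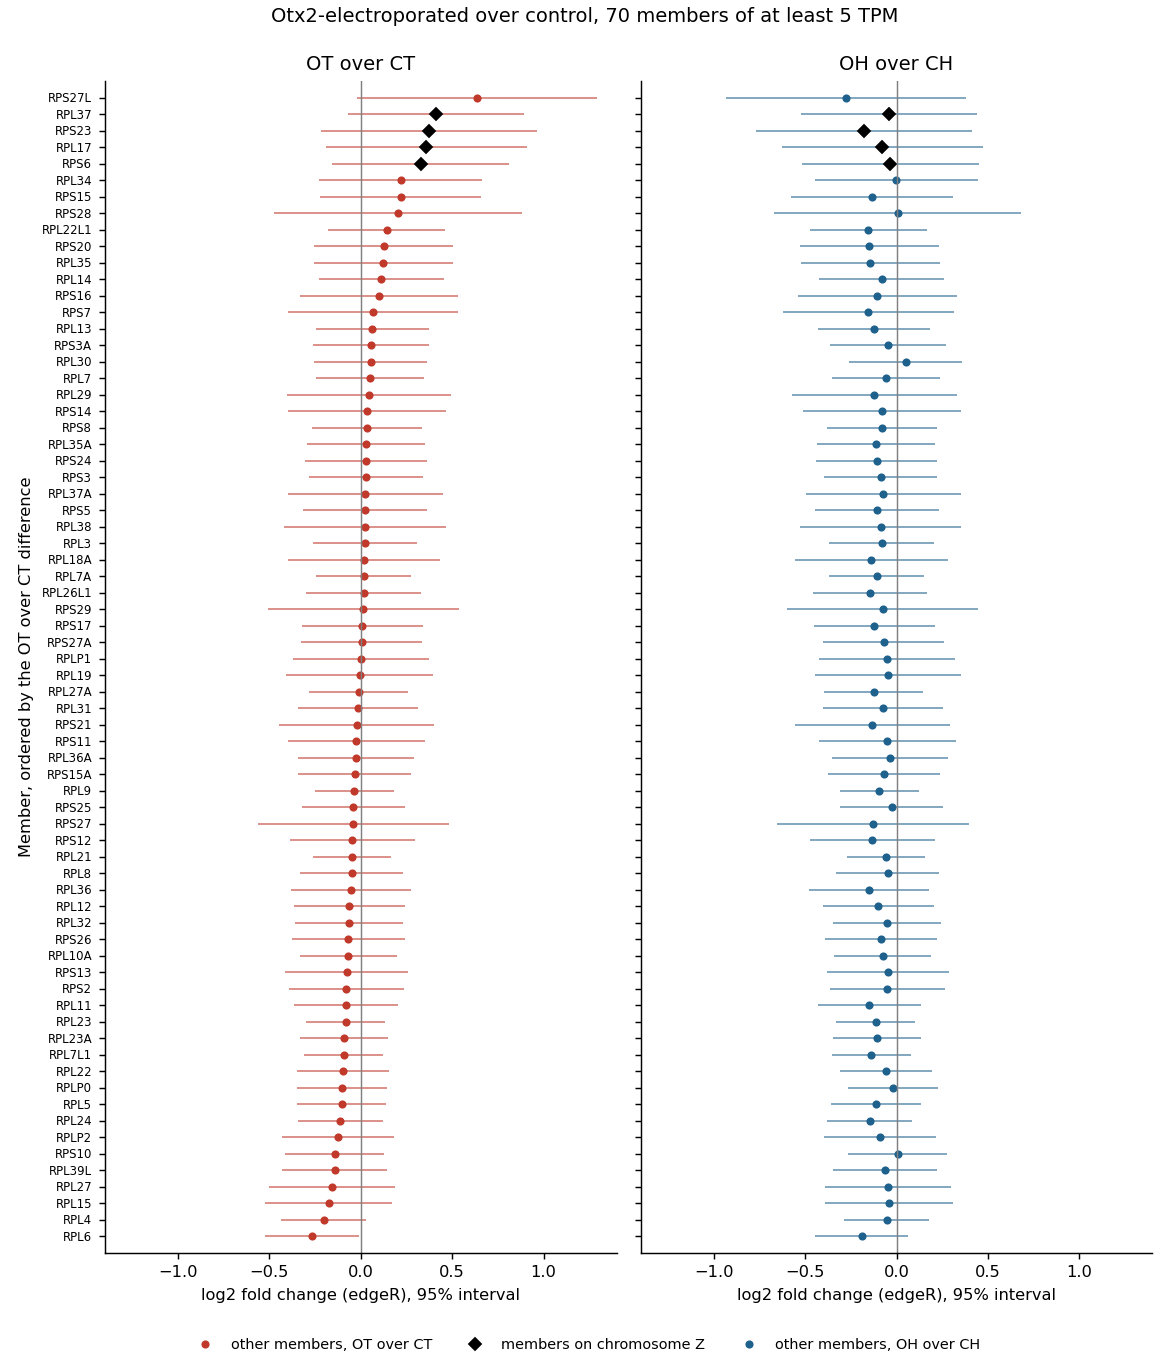
log2 fold change (points) with its 95% interval (lines) from edgeR for the 70 members of at least 5 TPM, OT over CT on the left and OH over CH on the right, ordered by the OT over CT value. Black diamonds are the 4 members on chromosome Z, which take 4 of the top 5 places on the left (0.33 to 0.41) and lie below 0 on the right. RPL6 in OT over CT is the only member whose interval does not include 0.

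The 4 members on chromosome Z, RPS6, RPL17, RPL37 and RPS23, took a larger share of the members' TPM in libraries with a lower level of W-linked transcripts. In birds females carry Z and W and males carry a pair of Z chromosomes, and Z-linked genes are only partly compensated for dosage. The summed level of the 154 W-linked genes of the table was 845 and 760 TPM in OT against 2162 and 2273 TPM in CT. It was 1587 and 1028 TPM in OH against 251 and 2188 TPM in CH, and 458 TPM in OA against 1913 TPM in CA. All other pools except CH2 thus held fewer W-linked transcripts than both CT pools, with the fewest in CH1, OA and the OT pools. CH2 lay between CT1 and CT2. The Z-linked members took 10.3% and 9.78% of the TPM of the members in OT against 7.87% and 7.88% in CT, 9.42% and 9.96% in OH against 11.1% and 7.92% in CH, and 9.98% in OA against 8.77% in CA. The highest share was in CH1, the library with the lowest W-linked level, and the lowest shares were in CT1, CT2 and CH2, the libraries with the highest.

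In CH1, RPS6 was at 7781 TPM, RPS23 at 6345 TPM and RPL17 at 5509 TPM, the highest values of the 10 libraries, whereas CH2 had 5323, 3786 and 3448 TPM. RPL37 was at 3946 TPM in CH1 and 2917 TPM in CH2, and its highest value was the 4169 TPM of OT2. In TPM OA went the other way. Although its W-linked level was the second lowest, RPL17 had its lowest value of the 10 libraries there, 3139 TPM, and RPS6 (5832 TPM), RPS23 (4082 TPM) and RPL37 (3361 TPM) were below OH1 (6642, 4808 and 3667 TPM). These differences between replicates of one control group were as large as those between OT and CT. Over the 778 Z-linked genes tested, the median log2 fold change was 0.33 for OT over CT and 592 were above 0, and it was -0.04 for OH over CH and -0.16 for CT over CH. When the log2 of the W-linked level was added to the fit as a covariate, an alternative chosen after seeing the data, the OT over CT difference became 0.02 for RPS6, -0.02 for RPL17, -0.01 for RPS23 and 0.16 for RPL37. In the trunk the W-linked level and the Otx2 groups separate the same libraries, so their parts in the difference between OT and CT cannot be told apart there.

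RPL17 has counterparts on chromosome W, of which the table lists 2 (identifiers 107049046, from 4103179 to 4112614, and 107055485, from 4061988 to 4063762 of GRCg7w) described as L17 and L17-like. Their summed level was 138 and 81.7 TPM in OT against 495 and 500 TPM in CT, 404 and 197 TPM in OH against 1.57 and 474 TPM in CH, and 2.86 TPM in OA against 430 TPM in CA. In CH1 they had 17 reads, while CH2 had 5280. The W-linked genes thus made up 3.28% and 1.94% of L17 transcripts in OT against 12.8% and 13.5% in CT. The sum of RPL17 and its W-linked counterparts was 4215 and 4209 TPM in OT against 3864 and 3718 TPM in CT, and 5510 TPM in CH1 against 3922 TPM in CH2. As group means RPL17 alone was at 4102 TPM in OT and 3293 TPM in CT, and the sum was at 4212 and 3791 TPM. The W-linked transcripts therefore made the differences between these libraries smaller without removing them. The assignment of reads between such near copies is uncertain.

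RPL6, on chromosome 15, differed in the other direction between libraries of low and high W-linked level. In the 5 libraries with the lowest W-linked level (OT1, OT2, OH2, CH1 and OA) it was between 2561 and 2865 TPM, and in the other 5 between 2973 and 3458 TPM. Within the first 5 it did not follow that level, as CH1, at the lowest (251 TPM), had their highest RPL6. RPL6 was the only one of 71 members that was lower without overlap in the libraries of low W-linked level, against 0.452% of all genes. Of the 71, 0 were higher without overlap, against 0.217% of all genes. Counts this small are not read as particular to the members. RPL6 was singled out after its values had been seen. With the W-linked level as a covariate its OT over CT difference was -0.20. The part of the W-linked level in it was not tested beyond this.

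**Figure D3:**
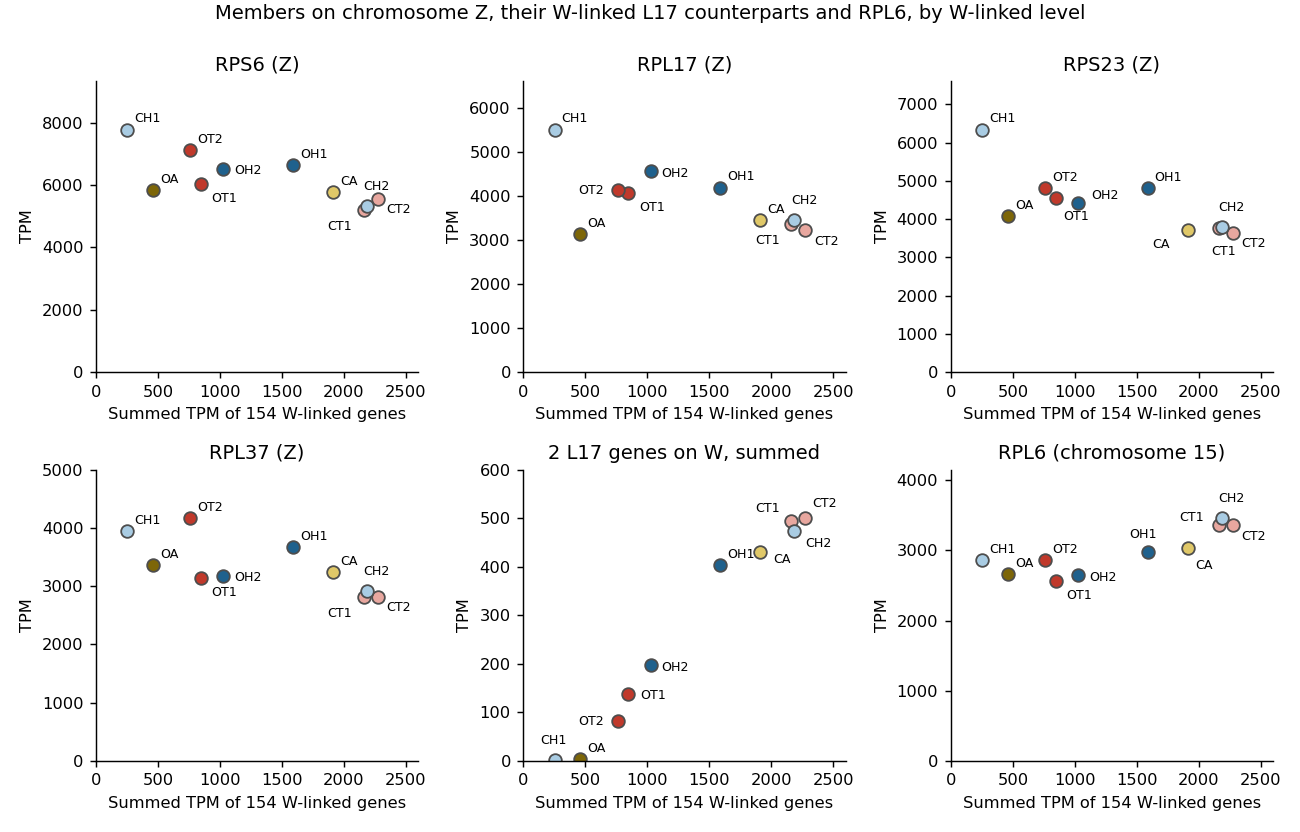
Level (TPM) of the 4 Z-linked members, of the 2 W-linked L17 genes summed, and of RPL6, against the summed TPM of the 154 W-linked genes in each of the 10 libraries; colors mark the groups. CH1, at a W-linked level of 251 TPM, has the highest RPS6, RPL17 and RPS23 and nearly no W-linked L17, and CT1, CT2 and CH2, at 2162, 2273 and 2188 TPM of W-linked transcripts, lie together in every panel.

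In the midbrain-hindbrain portion, which includes midbrain where OTX2 is normally expressed, OH was compared with CH. None of the 71 members passed the test of edgeR and 0 were called by DESeq2 or limma, while edgeR called 6 of 16611 genes (0.0361%). Under 0.05 unadjusted were 0 members, against 2.76% of all genes. The fold change was below 0 for 68 members and above 0 for 3, with a median log2 fold change of -0.08 against 0.01 over all genes. This direction depended on single libraries. Without CH1 the median was 0.02 and 40 members were above 0, and without OH2 it was -0.01 and 26 were above 0. Without CH2 it was -0.19 with 0 above 0, and without OH1 -0.17 with 1 above 0. Only 2 members had a fold change beyond 0.2, RPL3L and RPS27L, and 52 intervals lay within 0.5 of 0. The groups did not overlap for 15 of the 71 members that were lower in OH, against 12.8% of all genes, and for 0 that were higher, against 19.3%.

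RPS27L was at 33.6 and 31.6 TPM in OH against 41.9 and 35.2 TPM in CH (log2 fold change -0.28, 95% interval -0.93 to 0.38). RPL6 was at 2973 and 2645 TPM in OH against 2865 and 3458 TPM in CH (-0.19, interval -0.45 to 0.07), and RPS23 at 4808 and 4430 TPM in OH against 6345 and 3786 TPM in CH (-0.18, interval -0.77 to 0.41). For RPL6 and RPS23 the OH libraries lay between the CH libraries or overlapped them. RPS7 (-0.15) and RPL22L1 (-0.15) followed. The 3 members above 0 were RPL30 (0.05), RPS10 (0.01), whose protein is ubiquitinated when ribosomes collide, and RPS28 (0.01). RPS28 was at 2043 and 1413 TPM in OH against 2091 and 1251 TPM in CH, so that the replicates of both groups differed far more than the groups.

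The regions were compared within the controls (CT with CH) and within the Otx2 groups (OT with OH). None of the members was called by edgeR in CT over CH, where 1293 genes were (7.78%), and none in OT over OH, where 554 were (3.34%). At an unadjusted p under 0.05 the count was 0 and 1, against 21.7% and 24.0% of all genes. By DESeq2 the count was 0 and 1, and by limma 0 in both. The median log2 fold change of the members was -0.07 for CT over CH, with 9 above 0, and 0.01 for OT over OH, with 39 above 0. For CT over CH it was 0.04 without CH1, with 52 above 0, and -0.18 without CH2, with the Z-linked RPS23 at -0.86 and RPL17 at -0.83. The groups did not overlap for 3 of the 71 members that were higher in CT than in CH, against 25% of all genes, and for 25 that were lower, against 24%. In OT over OH they did not overlap for 2 members that were higher, against 24% of all genes, and for 12 that were lower, against 32.9%.

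In CT over CH the members farthest below 0 included all of the Z-linked ones, RPS23 (log2 fold change -0.48), RPL17 (-0.47), RPS6 (-0.31) and RPL37 (-0.31), with RPS28 (-0.35). RPS23 was at 3770 and 3648 TPM in CT against 6345 and 3786 TPM in CH. Here CH2 was close to CT and CH1 stood apart, as did its W-linked level (251 TPM against 2188 TPM in CH2). For the heart markers CH1 (604 TPM) was nearer to CT (185 and 179 TPM) than CH2 (4181 TPM) was. The members farthest above 0 were RPL39L (0.10), RPL6 (0.08), RPS2 (0.04), RPS25 (0.03) and RPL10A (0.03), all with intervals that included 0.

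In OT over OH, RPS27L was at 45.8 and 67.6 TPM in OT against 33.6 and 31.6 TPM in OH (log2 fold change 0.85, 95% interval 0.19 to 1.50, adjusted p = 0.126 by edgeR). The groups did not overlap, and its interval excluded 0 before adjustment. RPS20, RPS7, RPS16 and RPS15 of the small subunit followed with 0.23, 0.20, 0.19 and 0.18, and for RPS7 the values were 1722 and 2821 TPM in OT against 2172 and 1904 TPM in OH. For these 4 OT2 was above both OH libraries and OT1 below both. RPL27 (-0.23), RPL15 (-0.22), RPS10 (-0.21) and RPL4 (-0.15) were lower in both OT libraries than in both OH libraries, and RPS28 (-0.15) overlapped.

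Whether the response to Otx2 differed between trunk and midbrain-hindbrain was tested as an interaction, the OT over CT difference minus the OH over CH difference. edgeR called 0 members and 37 genes (0.223%), with 0 members under 0.05 unadjusted, against 13.1% of all genes. DESeq2 and limma called 0 members. The median was 0.09 on the log2 scale with 57 members above 0, and -0.03 with 29 above 0 without CH1. RPS27L had the largest value (0.91, 95% interval -0.02 to 1.84, adjusted p = 0.391 by edgeR), followed by the Z-linked RPS23 (0.55), RPL37 (0.45), RPL17 (0.44) and RPS6 (0.36). RPL4 (-0.15), RPS10 (-0.15), RPL15 (-0.13), RPL27 (-0.11) and RPLP0 (-0.09) were at the other end. With the W-linked level as a covariate the values were 0.63 for RPS27L, 0.04 for RPL37, -0.11 for RPS23, -0.20 for RPL17 and -0.16 for RPS6.

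The area opaca libraries have no replicates, so that their values are given without a test. OA was below CA for 59 of the 71 members, with a median ratio of 0.88, and 38 members had their lowest value of the 10 libraries in OA. The same counts were not made over all genes, so they are not read as particular to the members. In TPM both area opaca libraries lay below all 8 embryonic libraries for 13 members, against 28% of all genes. They lay above them for 1 member, against 8.13% of all genes. The 13 were RPL3, RPL4, RPL5, RPL9, RPL12, RPL19, RPL21, RPL22, RPL32, RPL7L1, RPLP0 and RPLP2 of the large subunit and RPS26 of the small subunit. In CPM only RPL4, RPL32 and RPLP0 of these stayed below all embryonic libraries, and the others overlapped them. RPLP0 was at 2094 TPM in OA and 2371 TPM in CA against a median of 2950 TPM (2680 to 3026) in the embryonic libraries, and RPL32 at 2665 TPM in OA and 3081 TPM in CA against 3949 TPM (3575 to 4423). RPL5, which binds 5S ribosomal RNA, was at 1619 TPM in OA and 1616 TPM in CA against 1905 TPM (1666 to 2076). In CPM RPL5 was at 1531 in OA and 1713 in CA, against 1576 to 1882 in the embryonic libraries. In share of counts rather than TPM the members took 5.59% in OA (exact 95% binomial interval 5.58 to 5.60, counting error only) and 6.91% in CA (6.91 to 6.92), so that CA was below CT in TPM and above it in counts.

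The member above all embryonic libraries was RPS27L, at 69.2 TPM in OA and 75.7 TPM in CA against 30.5 to 67.6 TPM. The embryonic library closest to it was OT2, and OT1 was next. The sum of the area opaca markers was also higher in OT than in CT, though not each marker in OT2, as given above. Between replicates, the library with the higher sum of these markers had the lower RPS27L in OT and CH and the higher RPS27L in CT and OH. The part of area opaca cells in the level of RPS27L in OT was not tested.

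RPL15 stood out in CA, at 1085 TPM against 2017 TPM in OA and 2015 to 2862 TPM in the embryonic libraries. In CPM the difference was small, with 730 in CA against 762 in OA and 750 to 1094 in the embryonic libraries. The table lists 7 transcripts of this gene. In CA 822 TPM were assigned to the longest, of 1300 bases, against 110 TPM in OA and 77.1 to 183 TPM elsewhere. The low TPM of RPL15 in CA thus came with an assignment of its reads to a longer transcript. Mean transcript length weighted by TPM was higher in CA by 0.66 on the log2 scale for RPL15, and the next largest range over the libraries was 0.12 for RPL35A.

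The paralogs in the set covered a wide range of levels. RPL22L1 was nearly as abundant as its partner RPL22, an RNA-binding protein of the large subunit, with 1564 and 1940 TPM as means of the 10 libraries. RPL22L1 was at 1354 and 1776 TPM in OT against 1365 and 1546 TPM in CT, and at 1587 and 1439 TPM in OH against 1560 and 1755 TPM in CH. RPL22 was at 1877 and 1908 TPM in OT against 2122 and 2070 TPM in CT. In OA the order was turned, with 1692 TPM of RPL22L1 and 1475 TPM of RPL22, whereas CA had 1566 and 1778 TPM. RPS27L was lower than RPS27 throughout, 47.5 against 907 TPM, and RPL7L1 lower than RPL7, 285 against 3560 TPM. RPL3L was at 0.81 TPM beside 3123 TPM of RPL3. RPL26L1 (2648 TPM) and RPL39L (3223 TPM) had levels like those of other ribosomal proteins, and no RPL26 or RPL39 was among the members. RPL36A, whose symbol has no L or L1 suffix and which was not counted as a paralog, was at 3332 TPM.

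**Figure D4:**
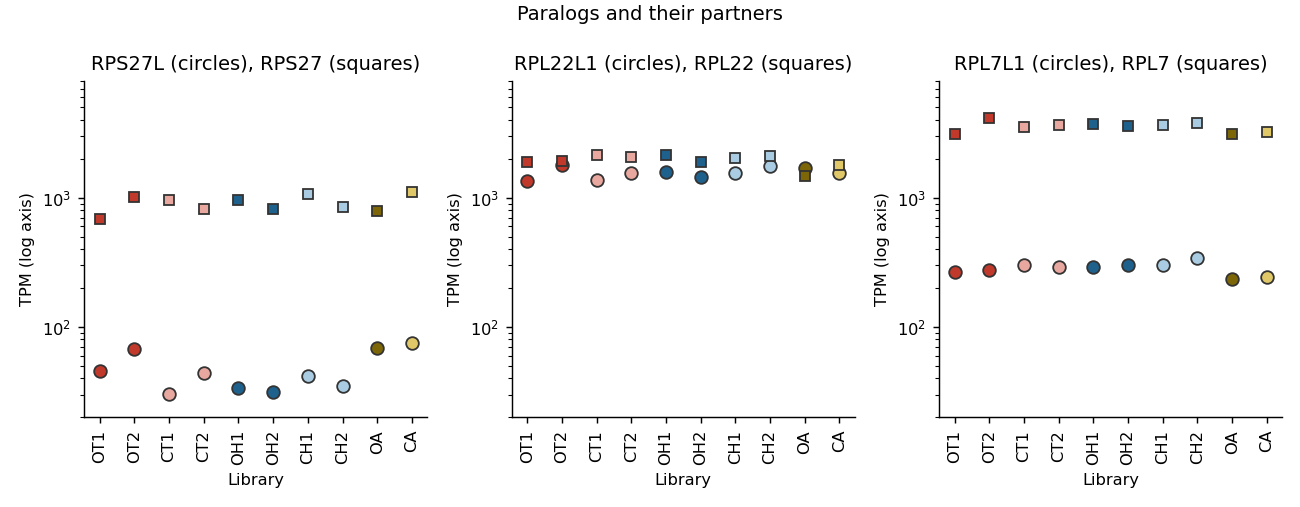
Level (TPM, log axis) of 3 paralogs (circles) and their partner genes (squares) in each of the 10 libraries, colored by group. RPS27L lies between 30.5 and 75.7 TPM with its highest values in CA, OA and OT2, RPL22L1 is close to RPL22 and above it in OA, and RPL7L1 is far below RPL7 throughout.

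Each member was set against its own mean over the libraries. Of 70 members, 4 were above it in OT1 and 8 in OA, against 66 in OH1, 61 in CH1 and 59 in OT2. In the other libraries between 25 and 49 were above it. The median of each library was then removed, which takes out such shared shifts, and the remaining profiles were split into components. The first component of these profiles held 51.3% of the variance and set CA, OA and OT2 (scores 1.46, 1.20 and 0.85) apart from the other libraries, all below 0. RPS27L (weight 0.61), RPL34 (0.21), RPS21, RPS15, RPS7 and RPS16 had the highest weights. RPL15 (-0.32), RPL32 (-0.17), RPL27, RPLP2, RPL4 and RPLP0 had the lowest. RPS27L thus stood apart, and the low TPM of RPL15 in CA came with a longer transcript, as given above. Among the named genes RPL34 was the only one of the large subunit at the upper end, and all at the lower end were of the large subunit. The second component held 20.2%, with CH1 (0.92) and OT1 (0.50) at one end and CH2 (-0.80), CT1 (-0.59) and CT2 (-0.54) at the other. The Z-linked RPS23, RPL17, RPS6 and RPL37 took 4 of its 5 highest weights, with RPS28 as the other one, and RPL6 the lowest. These components describe the 10 libraries and were not tested.

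**Figure D5:**
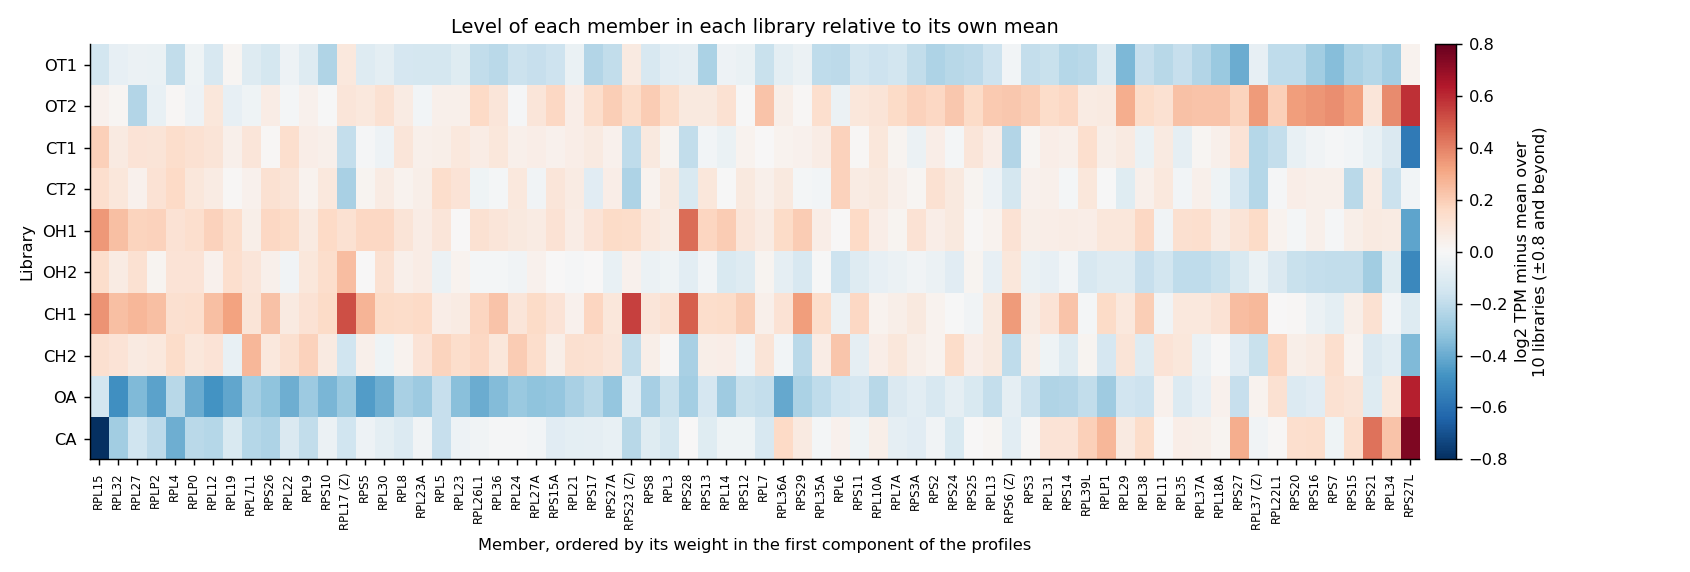
Level of the 70 members of at least 5 TPM (columns, ordered by weight in the first component; Z marks chromosome Z) in the 10 libraries (rows), as log2 TPM minus the mean of the member over the libraries. OT1 and OA are low for most members, OT2 is high toward the right where RPS27L stands, CH1 is high for RPL17, RPS23 and RPS6, and RPL15 is lowest in CA.

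The genes of 10601 candidates whose levels were most like the mean profile of the members, by Pearson's r over the 10 libraries, were POLR1D (0.94), a subunit shared by RNA polymerases I and III, TAF13 (0.93), TMEM18 (0.92), TM2D2 (0.92), PHPT1L (0.92), HDDC2 (0.92), CEP19 (0.91), NPB (0.91), GTF2B (0.91) and WDR89 (0.91). The libraries differ in region and depth, and these values only describe the likeness.

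Ribosomal proteins outside the symbol rule had levels of the same order. A gene listed as RPSAP58, described as a pseudogene of ribosomal protein SA, was at 5502 and 4891 TPM in OT against 6288 and 6349 TPM in CT (log2 fold change -0.24, adjusted p = 0.272 by edgeR), and RPS4Y1, described as S4 of the small subunit, at 2853 and 3160 TPM in OT against 3165 and 3041 TPM in CT. FAU, which encodes a small subunit protein fused to a ubiquitin-like protein, was at 1095 and 1473 TPM in OT against 1288 and 1283 TPM in CT (log2 fold change 0.03), with overlap. RACK1, a scaffold on the small subunit, was at 2281 and 2607 TPM in OT against 2771 and 2679 TPM in CT (-0.12), and neither gene was called by edgeR in any comparison. A second S27 gene in the table was at 218 and 323 TPM in OT against 282 and 250 TPM in CT, and its reads may be shared with RPS27. Of 72 genes for ribosomal proteins of the mitochondrion, 0 were called in OT over CT, with a median log2 fold change of -0.01. Under 0.05 unadjusted were 3 of them, against 26.8% of all genes.

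The factors that assemble ribosomes in the nucleolus were described beside the members. Of 33 such genes tested in OT over CT, 2 fell and 0 rose, a share close to the 6.73% called over all genes. At an unadjusted p under 0.05 by edgeR the count was 19 of the 33, against 26.8% of all genes. Of the 33, 32 were below 0, and the median log2 fold change was -0.37, against 0.03 over all genes. In OH over CH 2 of the 33 were above 0 and 0 were under 0.05 unadjusted. The median there was -0.12, against 0.01 over all genes. NOP2, an rRNA methyltransferase, fell to 101 and 103 TPM in OT, against 204 and 154 TPM in CT (log2 fold change -0.77, adjusted p = 0.0394 by edgeR), and NOLC1, a nucleolar phosphoprotein, to 147 and 144 TPM in OT, against 241 and 205 TPM in CT (-0.57, adjusted p = 0.0358). Of 18 other messengers of the oligopyrimidine class, NPM1, a nucleolar chaperone, fell to 3664 and 3909 TPM in OT, against 5218 and 5204 TPM in CT (-0.42, adjusted p = 0.038). Of 10 genes of MYC and its partners, transcription factors known to promote ribosome production, MYCN fell to 55.1 and 101 TPM in OT, against 197 and 152 TPM in CT (-1.12, adjusted p = 0.0471). NPM1 and MYCN were the only calls of their lists, against 6.73% called over all genes. Of these 18 and 10 genes, 5 and 2 were above 0. The 4 calls named here lay near the threshold. Of 20 alternative settings NOP2 and NOLC1 were called in 12 each, MYCN in 7 and NPM1 in 5, and without CT1 the adjusted p of edgeR was 0.219, 0.208, 0.262 and 0.188. All 4 stayed below 0 in each setting. In these lists 0 genes rose in OT over CT, and the difference between them and the members was not tested. NOP2 and MYCN were also lower in the area opaca, at 59.2 and 20.6 TPM in OA and 76.7 and 28.7 TPM in CA. The summed area opaca and the summed heart markers were higher in OT than in CT. The part of area opaca and heart cells in the lower levels in OT was not tested.

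The remaining lists had few calls. In OT over CT 0 of 17 genes of RNA polymerases I and III and 0 of 12 p53 targets were called. Of 20 regulators of initiation, elongation and mTOR signaling 0 were called. Under 0.05 unadjusted were 5, 4 and 1 of these genes, against 26.8% of all genes. MDM2, a p53 target, was at 69.5 and 41.4 TPM in OT against 31.4 and 48.4 TPM in CT, with overlap. In OH over CH 0 genes of any list were called. In CT over CH, VIM, an intermediate filament protein of the oligopyrimidine list, fell (log2 fold change -1.69, called in all of 19 alternative settings). Of the p53 list PLK2, a kinase, fell (-2.18) and SESN1, an inhibitor of mTORC1 signaling, rose (0.62), each called in 10 of their settings (18 and 19). In OT over OH and the interaction 0 genes of any list were called.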

How the data were processed

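The authors sequenced stranded poly-A libraries and deposited read counts, whole numbers without normalization, and TPM values scaled for transcript length, per gene and per transcript, made with StringTie on GRCg7w plus mouse Otx2 and EGFP. The aligner, versions and strand setting are not given in the sources used here. The 20 FPKM columns were not used. Names and chromosomes came from GRCg7b by gene identifier (70 of 71 members matched), coordinates from the deposited GRCg7w table.

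The 8 OT, CT, OH and CH libraries were fitted together in edgeR 4.0.16 (R 4.3.3) with TMM factors and the default filter, which kept 16611 genes and all 71 members. CT1 and CT2 were grouped by the library names in their labels. Quasi-likelihood tests used Benjamini-Hochberg adjustment over all genes, at 0.05, and 4 residual degrees of freedom. The p-values measure the spread between 2 pools a group. DESeq2 1.42.0, limma 3.58.1 (pseudocounts 1 and 0.1), other normalizations and filters, a replicate factor, 4-library fits and omission of each library were alternatives. Scripts were tested on simulated data. OA and CA entered no test. Python 3.11.15 with pandas 2.3.3 gave the descriptions. The members and lists were chosen with earlier results of these data known. Fold changes are named for called members, or otherwise for the 5 highest and 5 lowest of at least 5 TPM in the higher group, and levels for the 5 highest and 5 lowest members, the paralogs, the stalk and RPS6.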

Additional observations from a re-analysis of the deposited data

How the results depend on the processing

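The count of members called stayed at 0 in all 5 comparisons under every setting that kept 2 libraries a group, except DESeq2. DESeq2 called 1 member in OT over OH (RPS27L, 0.86, adjusted p = 0.0402), against 2462 of 16611 genes. The median log2 fold change of the members lay between -0.07 and 0.09 for OT over CT, -0.19 and 0.02 for OH over CH, -0.18 and 0.042 for CT over CH, -0.07 and 0.10 for OT over OH, and -0.030 and 0.20 for the interaction when each library was left out. With the W-linked level as a covariate it was -0.10 for OT over CT and -0.066 for the interaction, and other settings moved it by less than the spread between libraries. On log2 TPM 18 members were above 0 in OT over CT, against 36 in counts.

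With the covariate the sign of several fold changes reversed: RPL17 (-0.017) and RPS23 (-0.012) in OT over CT, RPS23 (0.10) in OH over CH, RPS23 (0.0024), RPS28 (0.10) and RPS6 (0.063) in CT over CH, and RPS6 (-0.16), RPL17 (-0.20) and RPS23 (-0.11) in the interaction. Without TMM RPS10 was at -0.0017 in OH over CH. When libraries were left out in turn, values passed 0 for RPL27 in OT over CT (-0.30 to 0.0087). In OH over CH they did so for RPS23 (-0.55 to 0.33), RPS28 (-0.37 to 0.51), RPS10 (-0.10 to 0.12) and RPL30 (-0.10 to 0.22). In CT over CH they did so for RPS23 (-0.86 to 0.029), RPS28 (-0.72 to 0.16), RPS6 (-0.62 to 0.074), RPL37 (-0.57 to 0.0079), RPL10A (-0.028 to 0.087), RPS25 (-0.012 to 0.072) and RPS2 (-0.026 to 0.12). In OT over OH they did so for RPS28 (-0.40 to 0.16), RPS15 (-0.062 to 0.41), RPS16 (-0.087 to 0.44) and RPS7 (-0.12 to 0.48), and in the interaction for RPL15 (-0.33 to 0.031), RPL27 (-0.29 to 0.066), RPLP0 (-0.18 to 0.0034), RPS6 (-0.027 to 0.66) and RPL17 (-0.032 to 0.79). The cause was not tested.

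As a share of counts the members took 6.41% in OT, 6.39% in CT, 6.38% in OH, 6.79% in CH, 5.59% in OA and 6.91% in CA. Without EGFP and mouse Otx2 in the total the share of TPM was 19.5% in CT, 16.5% in OA and 18.7% in CA, and without the paralogs 18.5% in CT, 15.8% in OA and 17.7% in CA. Mitochondrial-genome genes were not removed as an alternative, since 0 genes were assigned to that genome.

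Over all genes the calls moved more. DESeq2 called 2776 genes in OT over CT, 62 in OH over CH, 2457 in CT over CH, 2462 in OT over OH and 786 in the interaction. Fits on the 4 libraries called 135 in OT over CT, 0 in OH over CH and 9 in OT over OH. The covariate left 397 in OT over CT, 0 in OH over CH, 543 in CT over CH and 0 in the interaction. limma called 851 in OT over OH with a pseudocount of 1, and 8 and 3 in the interaction with 0.1 and 1. Of the calls 252 of 554 were higher in OT than in OH with edgeR, against 1375 of 2462 with DESeq2, and 14 of 37 were above 0 in the interaction, against 471 of 786. Leaving out libraries gave 53 (without CT1) to 1039 in OT over CT, 0 to 29 in OH over CH, 416 to 1785 in CT over CH, 9 to 1833 in OT over OH and 0 to 258 in the interaction.

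Deviations with the same replicate number correlated weakly, between -0.15 (OT and CT) and 0.14 (OT and OH). This does not decide whether the numbers pair the libraries. With the replicate block 0 members were called in each comparison, and 878, 4, 1108, 74 and 0 genes in OT over CT, OH over CH, CT over CH, OT over OH and the interaction. With the numbers of CT crossed, 1051 genes and 0 members were called in OT over CT.

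With 2 pools a group, the 95% intervals of the members reached a median of 0.32 to either side on the log2 scale (0.46 in the interaction), and smaller differences were mostly not resolved. The covariate, the crossed block and the fit without genes on Z and W were chosen after seeing the data.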
